A study of Homo sapiens with 6 samples.

Results

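Expression was measured in A549, a human lung adenocarcinoma cell line, after siRNAs against MYEOV or a control siRNA. The 214 genes described here are zinc finger genes of the ZNF series at or above the median level of named genes. They were chosen by the annotated symbol, ZNF followed by digits only, and by their measured level: a mean of 5.45 or more over the 6 arrays on the log2 RMA scale, which is the median of all 14884 named genes. Of 436 ZNF genes with a row in the table, 214 reached that level (49.1%) and 222 did not, with means between 1.42 and 5.44. For the 11 members with several rows, the row with the highest mean was used. The levels that chose the members are therefore given as a description only. The rule uses no change between groups, but it was set with earlier results of these data known. Its mean takes in all the groups compared.

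Cells had been transfected by lipid carrier with MYEOV siRNA 1 (siMYEOV #1 in the labels), MYEOV siRNA 2 (siMYEOV #2) or a control siRNA (siNC), and RNA was taken after 48 hours. Each of the 3 groups had 2 arrays, and the same 2 control arrays serve both comparisons with control. All cells were of the same line and had received an siRNA. The labels do not state if the arrays of a group are separate transfections. If they are not, p-values may measure technical spread alone. Changes are log2 fold changes with their standard error (SE) from limma, with a call at 0.05 after Benjamini-Hochberg adjustment over the 7442 named genes at or above the same level. With 2 arrays a group, the smallest p of an exact two-sided permutation test is 0.333.

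ZNF genes make up the largest group of human transcription factor genes. Most of their proteins carry tandem C2H2 fingers, small folds held by a zinc ion, each of which contacts a few bases of DNA. Many also carry a KRAB box, which recruits the co-repressor TRIM28 and through it the histone methyltransferase SETDB1 to silence retroelements and other sequences. The genes arose by repeated duplication and stand in clusters of near copies, most of all on chromosome 19. Probes for such near copies can share targets. How far this touches the values below was not tested.

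MYEOV, the targeted gene, gave 5.34 and 5.19 with siRNA 1 and 5.23 and 4.70 with siRNA 2, against 6.20 and 6.4999 in control arrays. Every array with a MYEOV siRNA was below both controls. The array medians over all rows lay between 4.08 and 4.10. Of the epithelial markers, KRT18 averaged 11.98, KRT7 8.12 and EPCAM 7.16. The alveolar type II genes SFTPC and NKX2-1 lay under the level threshold, at 4.28 and 4.53, and the endothelial marker PECAM1 at 2.71. DES, a muscle marker, lay above it at 6.25.

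Among the members with large changes were several genes whose upstream sequence is shared. ZNF254, ZNF431, ZNF138 and ZNF92 encode KRAB zinc finger proteins, the first 2 on chromosome 19 and the other 2 on chromosome 7. RefSeq sequence of the 250 bases before the gene start (GRCh38.p14) was at hand for 189 of the 214 members. The ZNF254 and ZNF431 windows were identical at 83.8% of aligned bases, ZNF431 and ZNF138 at 85.0% and ZNF254 and ZNF138 at 80.4%. For comparison, the windows of ZNF451 and ZNF367, which also rose with siRNA 2, matched these windows at 55.3% to 63.1% of aligned bases. The ZNF451 and ZNF367 windows matched each other at 67.8%. The stretches below show the shared part. Capitals mark AAACGTTAT and, 30 bases further on, CAATCAGGCAC, letters read from the ZNF254 window after the values of ZNF254, ZNF431 and ZNF138 had been seen. Each stretch is on the plus strand.
ZNF254, chr19:24087085-24087158: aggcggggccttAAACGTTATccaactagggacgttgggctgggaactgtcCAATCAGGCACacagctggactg
ZNF431, chr19:21141932-21142005: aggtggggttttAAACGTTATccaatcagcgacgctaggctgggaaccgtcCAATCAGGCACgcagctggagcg
ZNF138, chr7:64794320-64794393: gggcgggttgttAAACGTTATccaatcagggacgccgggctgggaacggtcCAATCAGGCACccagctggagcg
ZNF92, chr7:65373747-65373820: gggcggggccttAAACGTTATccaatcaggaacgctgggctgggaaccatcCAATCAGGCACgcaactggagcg

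Searched on both strands of 27305 RefSeq windows of the same length, the pair occurred in 9 (0.0330%), of which 8 were of genes with a ZNF symbol. It was present in 4 members, the 4 above, and in no other gene tested. The second stretch alone was present in 2 further members, ZNF43 and ZNF823, shown here from the minus strand.
ZNF43, chr19:21836217-21836289: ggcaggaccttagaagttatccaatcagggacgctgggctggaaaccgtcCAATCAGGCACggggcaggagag
ZNF823, chr19:11738988-11739060: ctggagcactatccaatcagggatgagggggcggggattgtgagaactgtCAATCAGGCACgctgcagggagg

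ZNF254 had levels of 7.34 and 7.15 with siRNA 1 and 7.48 and 7.39 with siRNA 2, against 6.61 and 6.73 in control arrays. All 4 arrays of the MYEOV siRNAs lay above both controls. It rose by 0.57 ± 0.09 (SE) with siRNA 1 (limma, adjusted p = 0.0188) and by 0.77 ± 0.09 with siRNA 2 (adjusted p = 0.00364), the largest rise of any member with siRNA 2. The siRNA 2 call held under all 13 alternative settings, and the siRNA 1 call under 8 of 13. It was lost on leaving out any array of siRNA 1 or of control (replicate 1 or 2 of each), and with no filter on level.

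ZNF431 had 6.79 and 6.72 with siRNA 1 and 6.77 and 6.76 with siRNA 2, against 5.78 and 6.35 in control arrays. The siRNA arrays were close together and above both controls, while the controls lay apart from each other. Its change was 0.69 ± 0.16 with siRNA 1 and 0.70 ± 0.16 with siRNA 2, and neither was called (limma adjusted p = 0.0676 and 0.0525). For the mean of both siRNAs it rose by 0.70 ± 0.14 (adjusted p = 0.0381). Without control replicate 1 that value was 0.41, and without control replicate 2 it was 0.98.

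ZNF138 separated the siRNAs. Its levels were 6.42 and 6.85 with siRNA 1 and 7.35 and 7.42 with siRNA 2, against 6.51 and 6.83 in control arrays. With siRNA 1 the arrays overlapped the controls, and with siRNA 2 both lay above them. The gene rose by 0.71 ± 0.16 with siRNA 2 (limma adjusted p = 0.0420). The difference between siRNA 1 and siRNA 2 was -0.75 ± 0.16 (adjusted p = 0.0285).

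ZNF92 had 5.97 and 6.19 with siRNA 1 and 6.28 and 6.07 with siRNA 2, against 5.72 and 5.81 in control arrays. The groups did not overlap, but the changes of 0.31 ± 0.11 and 0.41 ± 0.11 were not called (limma adjusted p = 0.161 and 0.0650). The 2 members with the second stretch alone had smaller values. ZNF43 had -0.05 with siRNA 1 and -0.17 with siRNA 2, and ZNF823 had -0.05 and 0.05, and none was called. Below the level threshold, 3 more ZNF genes had both stretches. ZNF107, at a mean level of 5.35, had changes of 0.26 ± 0.13 and 0.11 ± 0.13 when all named genes were fitted, while ZNF492 and ZNF91 lay at 2.73 and 2.64 and had -0.02 and -0.08, and -0.13 and -0.10. A further 9 ZNF genes under the threshold had the second stretch alone. With siRNA 1, 4 of them were above 0 and 5 below, with siRNA 2 6 were above and 3 below, and 0 were called by limma (1 and 2 had an unadjusted p under 0.05). Their values ran from -0.72 (ZNF443) to 1.04 (ZNF675) with siRNA 1 and from -0.24 to 1.03, of the same genes, with siRNA 2. Between them, ZNF141 had 0.49 and 0.63, ZNF680 had 0.24 and 0.54 and ZNF430 had 0.00 and 0.43. So genes with the second stretch alone were not uniformly near 0. Because the letters were picked from 3 genes that had moved, these values describe the genes and test nothing. The shared upstream sequence goes with shared coding sequence in such families, so probes that pick up more than 1 of these transcripts cannot be told apart here from separate changes.

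**Figure D1:**
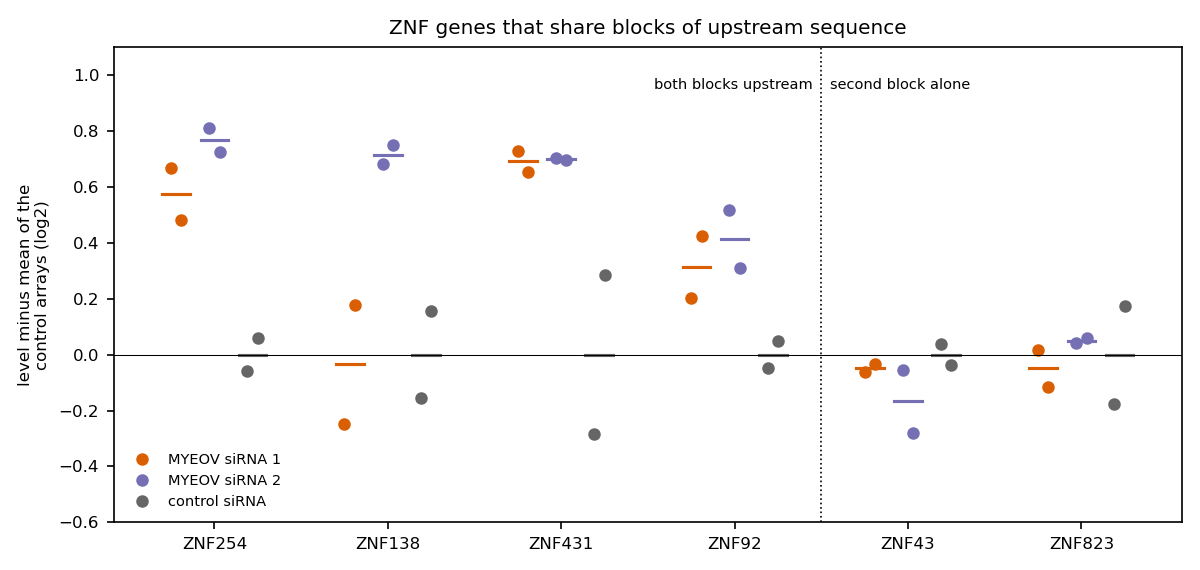
Levels of the 6 members with shared upstream stretches, as the difference from the mean of the control arrays (vertical axis, log2). Points are single arrays and bars are group means. Left of the dotted line, ZNF254, ZNF431 and ZNF92 lie above the controls with both siRNAs and ZNF138 with siRNA 2. Right of it, ZNF43 and ZNF823 stay within 0.3 of the control mean. ZNF genes under the level threshold with these stretches are not shown, and their changes did not all follow this split.

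With siRNA 1, 7 of the 214 members were called, which is 3.27% of them against 4.66% of all genes tested. Of these, 3 were higher and 4 lower, where 2.28% and 2.38% of all genes tested were. Besides ZNF254, the SUMO ligase ZNF451 and the KRAB zinc finger gene ZNF229 rose. ZNF451 had 7.64 and 7.62 with siRNA 1, against 7.18 and 7.25 in control arrays, and rose by 0.41 ± 0.08 (limma adjusted p = 0.0387). ZNF229 had 5.98 and 5.97 with siRNA 1, against 5.55 and 5.53 in control arrays, and rose by 0.43 ± 0.06 (adjusted p = 0.0158). Its replicate arrays were among the closest of all members, with a within-group SD of 0.0109.

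The 4 falls with siRNA 1 were of ZNF146, ZNF609, ZNF652 and ZNF629. ZNF146, also called OZF, encodes a protein built almost wholly of fingers and had the highest mean level of all members, 9.67. It had 9.42 and 9.36 with siRNA 1, against 9.82 and 10.07 in control arrays, and fell by 0.55 ± 0.09 (limma adjusted p = 0.0254). ZNF609, whose transcript is also the source of an abundant circular RNA, had 7.31 and 7.34, against 7.70 and 7.84, and fell by 0.45 ± 0.08 (adjusted p = 0.0255). ZNF652, a repressor that works with the corepressor CBFA2T3, had 7.94 and 7.82, against 8.29 and 8.33 in control arrays. It fell by 0.43 ± 0.08 (adjusted p = 0.0300). ZNF629 had 6.81 and 6.71, against 7.12 and 7.22, and fell by 0.41 ± 0.09 (adjusted p = 0.0495), next to the threshold.

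These siRNA 1 calls rest on all 4 arrays. Without control replicate 1 only ZNF146 remained called. With control replicate 2 left out 0 of the 7 did, and 40 members had an unadjusted p under 0.05. Dropping replicate 1 of siRNA 1 also left 0 (32 unadjusted), as did dropping its replicate 2 (30 unadjusted). Without either siRNA 2 array, 6 of the 7 remained. Besides ZNF431, uncalled members with large values and no overlap with control were ZNF275 at -0.46, ZNF23 at -0.39, ZNF367 at -0.35 and ZNF324 at -0.31, and ZNF112 at 0.39, ZNF641 at 0.38, ZNF783 at 0.34 and ZNF34 at 0.33. ZNF641 reached the level threshold through siRNA 1 alone, with group means of 5.71 with siRNA 1 and 5.39 with siRNA 2, against 5.34 in control. In all, 18 members had a group mean under the threshold, and 6 of them, ZNF74 and ZNF641 included, were above it in 1 group only.

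With siRNA 2, 10 members were called, which is 4.67% against 6.83% of all genes tested. Of these, 6 were higher and 4 lower, where 2.59% and 4.23% of all genes tested were. The higher ones were ZNF254, ZNF451, ZNF138, ZNF367, ZNF562 and ZNF34. ZNF451 had 7.85 and 8.02 with siRNA 2, against 7.18 and 7.25 in control arrays, and rose by 0.72 ± 0.08 (limma adjusted p = 0.00311). Its call with siRNA 2 held under all 14 alternatives. A second row of ZNF451, at a mean of 5.50, changed by 0.05 with siRNA 1 and 0.08 with siRNA 2. With the rows of a gene averaged, ZNF451 was not called with siRNA 1, at 0.23, and had 0.40 with siRNA 2.

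ZNF367, an activator first described for erythroid genes, had 7.87 and 7.87 with siRNA 2, against 7.30 and 7.28 in control arrays, and rose by 0.58 ± 0.08 (limma adjusted p = 0.00665). ZNF562, a KRAB zinc finger gene, had 7.11 and 6.94, against 6.68 and 6.60, and rose by 0.38 ± 0.08 (adjusted p = 0.0406). ZNF34 had 6.02 and 6.11, against 5.67 and 5.71 in control arrays. It rose by 0.38 ± 0.08 (adjusted p = 0.0378).

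Of the falls with siRNA 2, the largest was that of the X-linked ZNF275. It had 5.40 and 5.11 with siRNA 2, against 5.91 and 6.04 in control arrays, and fell by 0.72 ± 0.11 (limma adjusted p = 0.00993). ZNF766 fell by 0.48 ± 0.09 (adjusted p = 0.0232), with 8.17 and 8.24 against 8.57 and 8.79. ZNF512 fell by 0.37 ± 0.08 (adjusted p = 0.0448), with 7.82 and 7.78 against 8.09 and 8.25. ZNF74, which lies in the region of chromosome 22 deleted in DiGeorge syndrome, had 5.36 and 5.28, against 5.62 and 5.61, and fell by 0.30 ± 0.07 (adjusted p = 0.0466). It was the member nearest above the level threshold, which its mean reached in control arrays alone (5.61, against 5.43 with siRNA 1 and 5.32 with siRNA 2), so its fall is tied to the filter and supports nothing about the members.

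Leaving out 1 array left 3 to 5 of the 10 siRNA 2 calls. ZNF254, ZNF367 and ZNF451 were kept in each case, while 5 remained without control replicate 1, 3 without control replicate 2, 5 without either siRNA 1 array and 4 without either siRNA 2 array. Besides ZNF431, uncalled members that did not overlap control included ZNF627 at -0.60, ZNF655 at -0.50, ZNF706 and ZNF79 at -0.35, ZNF112 at 0.51 and ZNF416 at 0.42. The 2 siRNA 2 arrays of ZNF627, 5.58 and 4.71, lay far apart.

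**Figure D2:**
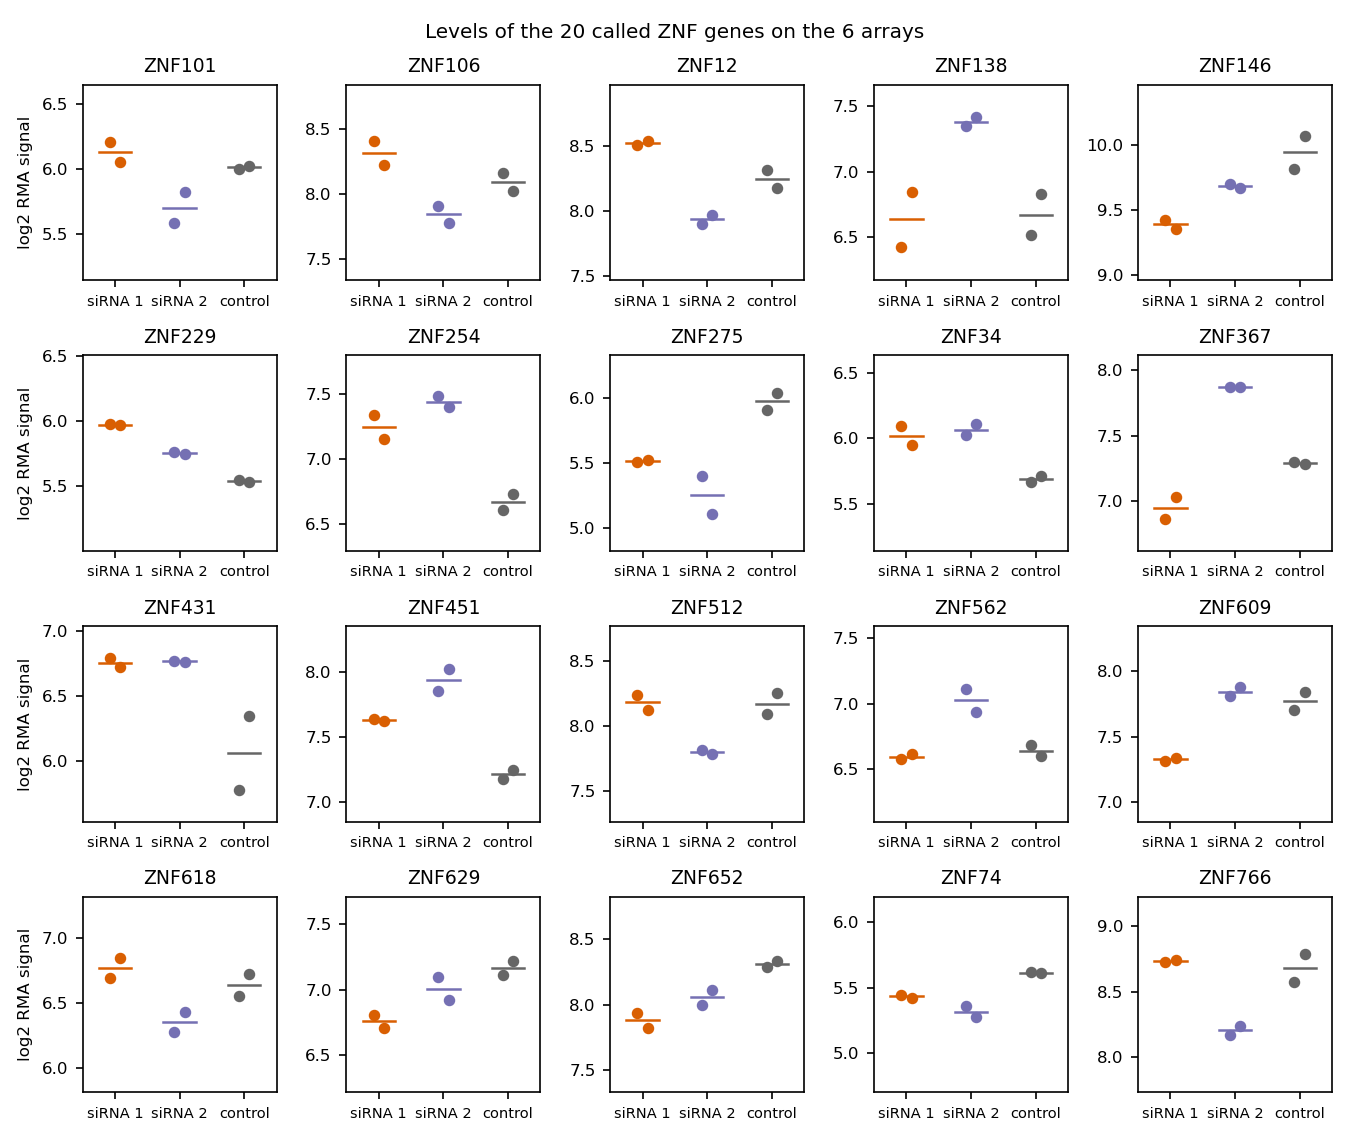
Levels of the 20 ZNF genes called in any of the 4 contrasts (vertical axes, log2 RMA signal, each spanning 1.5 units), with points for single arrays and bars for the mean of each group. ZNF254 and ZNF451 lie above control with both siRNAs, and ZNF367 lies below control with siRNA 1 and above it with siRNA 2.

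Both siRNAs called 2 members in the same direction, ZNF254 and ZNF451, against 1.22% of all genes tested, and 0 in opposite directions, against 0.148%. These comparisons share their control arrays, so the overlap is given as a count. For the mean of both siRNAs, 8 members were called (3.74% against 5.42% of all genes tested), 5 higher and 3 lower, where 2.55% and 2.86% of all genes tested were. ZNF254 rose by 0.67 ± 0.08 (limma adjusted p = 0.00634) and ZNF451 by 0.57 ± 0.07 (adjusted p = 0.00805), and ZNF431, ZNF34 and ZNF229 by 0.70, 0.35 and 0.32. ZNF275 fell by 0.59, ZNF146 by 0.40 and ZNF652 by 0.34. Without control replicate 1, 0 of these 8 remained called (34 members had an unadjusted p under 0.05). With control replicate 2 or any 1 array of siRNA 1 (replicate 1 or 2) left out, 2 remained, and without either siRNA 2 array 3 remained.

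Directly between siRNA 1 and siRNA 2, 10 members differed, which is 4.67% against 9.15% of all genes tested. Of these, 6 were higher with siRNA 1 and 4 lower, where 5.37% and 3.78% of all genes tested were. ZNF367 had 6.86 and 7.03 with siRNA 1, against 7.87 and 7.87 with siRNA 2. This difference of -0.92 ± 0.08 (limma adjusted p = 0.000795) was the largest among the members and was called under all 14 alternatives. ZNF12, a KRAB zinc finger repressor, had 8.50 and 8.54 with siRNA 1, against 7.90 and 7.97 with siRNA 2. The difference was 0.58 ± 0.08 (adjusted p = 0.00478). Control arrays lay between the siRNAs for both genes.

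ZNF609 had 7.31 and 7.34 with siRNA 1, against 7.81 and 7.88 with siRNA 2, a difference of -0.52 ± 0.08 (limma adjusted p = 0.00799). ZNF766 had 8.72 and 8.74, against 8.17 and 8.24, a difference of 0.53 ± 0.09 (adjusted p = 0.0123). ZNF106, which encodes an RNA-binding protein, differed by 0.47, ZNF101 by 0.43, ZNF618, whose product binds UHRF2, by 0.41 and ZNF512 by 0.38, all higher with siRNA 1. ZNF562 differed by -0.43 and ZNF138 by -0.75. Of the 10, 2 remained called without replicate 1 of siRNA 1 and 3 without its replicate 2. With replicate 1 of siRNA 2 left out 3 remained, and with its replicate 2 left out 5, and ZNF12 and ZNF367 were kept in each case. Without either control array 8 remained.

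The members' changes were centred near 0. Their median change was within 0.01 of 0 in each contrast, as was that of all genes tested. With siRNA 1 the change was above 0 for 109 members and below 0 for 105. With siRNA 2 it was above 0 for 105 and below 0 for 109. With siRNA 1, 94 members had siRNA arrays that did not overlap control, 43.9% against 48.8% of all genes tested. With siRNA 2 there were 101, or 47.2% against 50.6%. No member's group means spanned more than 1 log2 unit, against 1.02% of other genes tested, and 13 spanned more than 0.5 (6.07% against 7.32%).

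**Figure D3:**
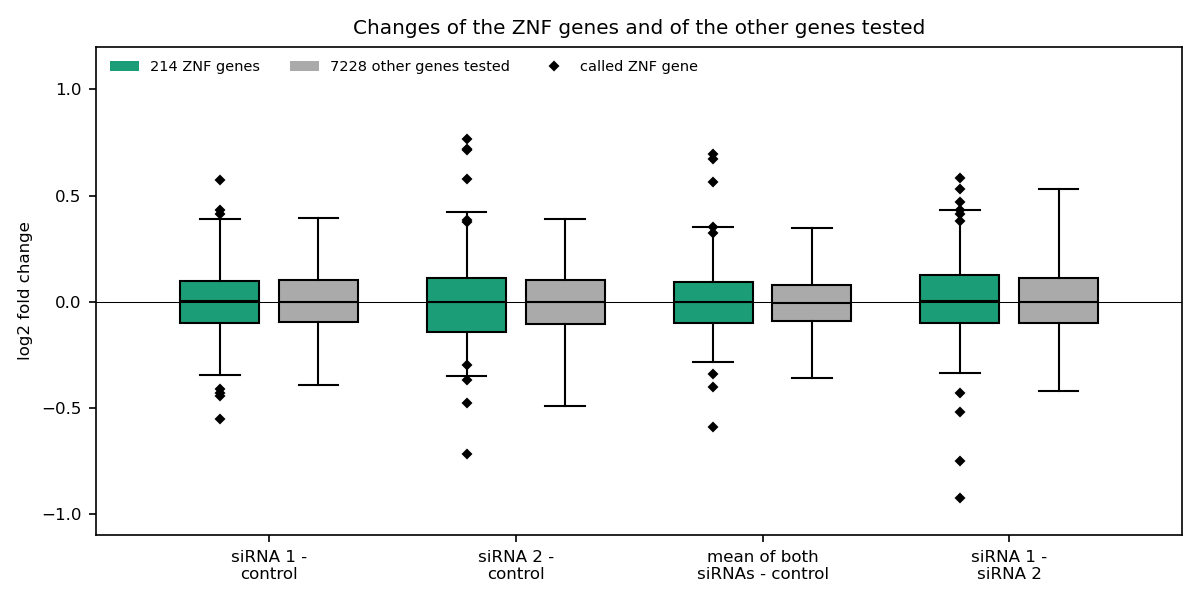
Log2 fold changes (vertical axis) of the 214 ZNF genes, green, beside the 7228 other genes tested, grey, in the 4 contrasts. Boxes span the quartiles with the median, whiskers the central 95% of genes, and diamonds mark called ZNF genes. The medians of both groups of genes lie within 0.01 of 0 in each contrast.

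The members were dimmer than the other genes tested, with 68.2% against 39.9% of them under a level of 7, and dim genes vary more between replicate arrays. They were therefore set beside other genes in bands of level with lower edges at the threshold, 6, 6.5, 7 and 8. The median within-group SD was 0.135 over the 66 members of the lowest band, against 0.120 over 1083 other genes. It was 0.129 against 0.0987 from 6 to 6.5, 0.108 against 0.0959 from 6.5 to 7, 0.0757 against 0.0813 from 7 to 8, and 0.0707 against 0.0638 from 8 upwards. Replicate spread was thus wider among the members in 4 of 5 bands. Weighting the bands by their number of members, the members' median SD was 1.11 times that of other genes, and 1.13 times within siRNA 1 arrays, 1.25 times within siRNA 2 arrays and 1.05 times within control arrays.

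The range of the 3 group means was 0.191 for the median member and 0.181 for other genes weighted to the same levels, a ratio of 1.06. On the same weighting, 4.09%, 5.67% and 7.91% of other genes were called with siRNA 1, with siRNA 2 and between the siRNAs, where the members had 3.27%, 4.67% and 4.67%. For the mean of both siRNAs, 3.74% of members and 4.41% of other genes were called. Other measures were higher in some contrasts and lower in others. An unadjusted limma p under 0.05 was found for 24.3% of members with siRNA 2, against 21.1% of other genes on that weighting. For the mean of both siRNAs it was 20.1% against 19.04%, with siRNA 1 16.8% against 18.5%, and between the siRNAs 19.6% against 22.4%. The median absolute change was 0.12 against 0.11 with siRNA 2 and 0.119 against 0.111 between the siRNAs. It was 0.098 against 0.092 for the mean of both siRNAs and 0.099 against 0.103 with siRNA 1. No test was made of these differences. The share of members above 0 was 50.9% with siRNA 1 and 49.1% with siRNA 2, against 51.0% and 51.2% of other genes on that weighting.

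**Figure D4:**
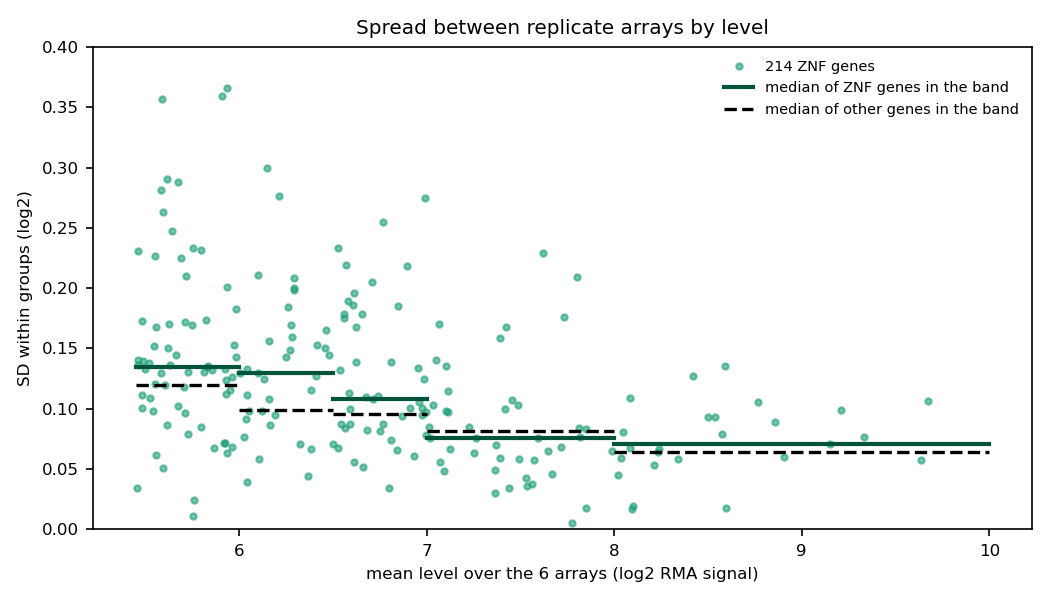
Within-group SD of the 214 ZNF genes (vertical axis, log2) against their mean level over the 6 arrays (horizontal axis, log2 RMA signal), with the median of ZNF genes (solid) and of other genes tested (dashed) in 5 bands of level. The solid line lies above the dashed one in each band but that from 7 to 8.

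The brightest members after ZNF146 were ZNF207, a spindle protein that binds BUB3, at 9.64, ZNF532 and ZNF592, partners of the chromatin reader ZMYND8, at 9.33 and 9.21, and ZNF384, a regulator of matrix genes, at 9.15. ZNF207 had changes of -0.09 with siRNA 1 and -0.18 with siRNA 2, ZNF532 of 0.13 and 0.16, ZNF592 of 0.06 and -0.17 and ZNF384 of -0.11 and 0.01, and none was called. The 3 members with the widest replicate spread were ZNF792, ZNF449 and ZNF627, with within-group SDs of 0.366, 0.359 and 0.357. The closest replicates were those of ZNF346, a double-stranded RNA-binding protein, at 0.00481, then ZNF229 and ZNF142, at 0.0109 and 0.0164. Just inside the level threshold stood ZNF74, ZNF774 and ZNF569, with means of 5.45, 5.46 and 5.46. Just outside it stood ZNF668, ZNF76 and ZNF329, each at 5.44.

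Chromosome 19 held 219 of the 436 ZNF genes and 81 of the 214 members. The level threshold was reached by 37.0% of ZNF genes on chromosome 19 and by 61.3% of those elsewhere. Of the members on chromosome 19, 49 were above 0 and 32 below for the mean of both siRNAs, with a median of 0.05. On other chromosomes 58 were above 0 and 75 below, with a median of -0.02. Other genes tested on chromosome 19 had 228 above and 225 below. On chromosome 16, 5 of 19 members were above 0 and 14 below, while 10 of 15 on chromosome 7 and 9 of 12 on chromosome 1 were above 0. Of all genes tested, 47.8% were above 0. Other genes on chromosomes 16, 7 and 1 were not counted. Of the 81 members on chromosome 19, 7 were called in some contrast (8.64%), and of the 133 elsewhere 13 were (9.77%), against 13.6% of all genes tested.

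Runs of at least 8 ZNF genes in RefSeq order, with at most 1 other protein-coding gene between neighbours, were examined as clusters. In the run from ZNF283 to ZNF180 on chromosome 19, all 9 members were above 0 for the mean of both siRNAs, with a median of 0.12, and 1, ZNF229, was called. ZNF112, in the same run, had 6.12 and 6.26 with siRNA 1 and 6.15 and 6.48 with siRNA 2, against 5.99 and 5.61 in control arrays, a change for the mean of 0.45 that was not called (limma adjusted p = 0.108). In the run from ZNF566 to ZNF573, all 6 members were above 0, with a median of 0.13 and 0 called by limma (adjusted). In the run from ZNF264 to ZNF8, 9 of 13 were above 0, with a median of 0.07. The run from ZNF786 to ZNF862 on chromosome 7 had 4 of 7 above 0 and a median of 0.00. The run that holds ZNF254 and ZNF431, from ZNF101 to ZNF254, had 3 of 5 above 0 and a median of 0.32. From ZNF577 to ZNF816, 1 of 4 was above 0, with a median of -0.14. The runs from ZNF699 to ZNF846 and from ZNF627 to ZNF791 each had 3 of 4 above 0, with medians of 0.11 and 0.06. Members of a run are near copies and share arrays, so they are not independent. Of 40 pairs of members that neighbour each other directly, 28 had the same sign for the mean of both siRNAs, 25 with siRNA 1, 25 with siRNA 2 and 20 for siRNA 1 against siRNA 2. The first 3 of these counts share the control arrays, and no such count was made for other genes.

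**Figure D5:**
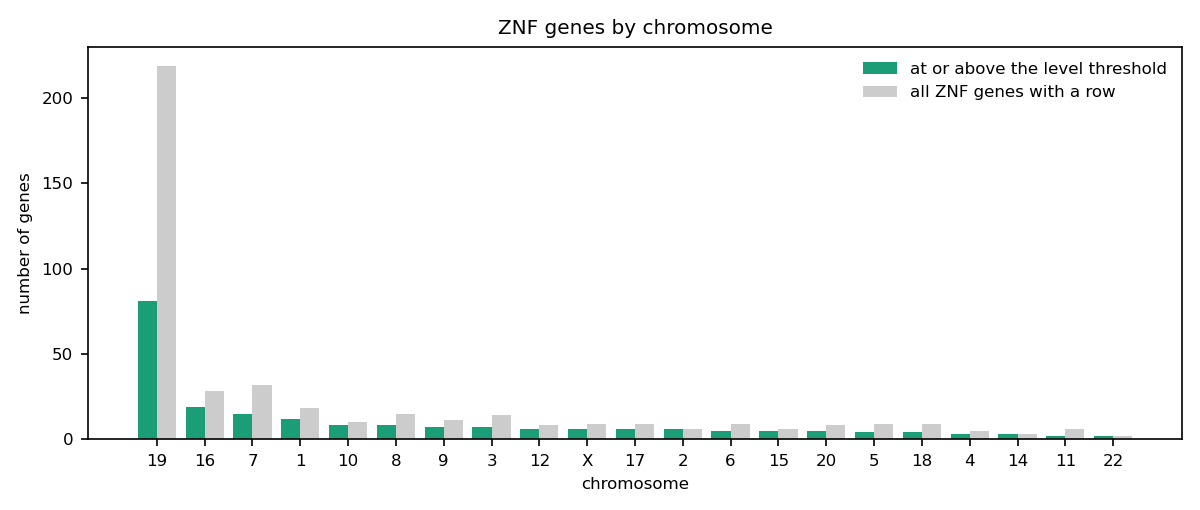
Number of ZNF genes (vertical axis) by chromosome (horizontal axis), with those at or above the level threshold in green and all ZNF genes with a row in grey. Chromosome 19 has 81 of 219 genes at or above the threshold, and chromosome 16 has 19 of 28.

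In the windows before the gene start, the ETS motif CCGGAAGT, read on both strands, was present in 13.8% of the 189 members with sequence, 11.5% of 182 ZNF genes under the threshold, 7.61% of 5832 other genes tested and 3.64% of all 27305 windows. CCAAT, which overlaps the second shared stretch above by 4 letters, was present in 39.2% of members, 53.3% of ZNF genes under the threshold, 35.5% of other genes tested and 33.0% of all windows. The E2F motif GGCGGGAA was present in 4.23% of members and 4.82% of other genes tested, and the cyclic AMP response element TGACGTCA in 4.76% and 3.05%. The median number of CG pairs was 19 in members, 15 in ZNF genes under the threshold and 22 in other genes tested. Of the 18 called members with sequence, 1 held the ETS motif, 8 held CCAAT, 3 held the E2F motif (16.7%) and 0 held the cyclic AMP response element.

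The partners through which KRAB zinc finger proteins silence their targets were described as a list. Of 23 such genes tested, limma called 0 with siRNA 1, 0 with siRNA 2 and 0 between the siRNAs (1, 3 and 2 had an unadjusted p under 0.05), against 4.66%, 6.83% and 9.15% of all genes tested. Their median change was -0.05 with siRNA 1 and 0.00 with siRNA 2. TRIM28, the co-repressor itself, had a mean level of 10.90 and changes of -0.11 and -0.05. For the mean of both siRNAs, the highest values were 0.19 for the remodeller CHD3, 0.17 for the deacetylase HDAC1, 0.15 for MPHOSPH8 of the HUSH complex and 0.11 for CBX5, which is HP1 alpha. The lowest were -0.21 for the methyltransferase SUV39H2, -0.16 for the histone chaperone DAXX, -0.16 for MBD1, which binds methylated DNA, and -0.09 for DNMT1.

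Related zinc finger families were described by the same counts. Of 30 ZBTB genes tested, 3 were called with siRNA 1 (10.0%) and 4 with siRNA 2 (13.3%), against 4.66% and 6.83% of all genes tested. Of 19 KLF and SP genes, 4 (21.1%) and 2 (10.5%) were called. None of the 9 ZSCAN, 4 ZKSCAN and 6 ZFP genes, nor of the 19 ZNF genes with a letter after the number, was called by limma in either comparison, and 0, 0, 2 and 3 of them had an unadjusted p under 0.05 with siRNA 1 and 0, 0, 3 and 3 with siRNA 2.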

How the data were processed

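Expression was measured on 6 whole-transcript arrays. The authors deposited RMA signals on a log2 scale, as the submitters' processing notes name the method without a version. RMA corrects background, equalises arrays and summarises probes, and compresses changes of dim transcripts. The annotation gave exactly 1 symbol to 16098 of 53617 rows. The other 37519 had no symbol or more than 1 and were left out. Each gene took its row with the highest mean, and the 7442 genes at or above the median level were tested. Limma 3.58.1 in R 4.3.3 (lmFit, eBayes) fitted 3 group means over all arrays, leaving 3 residual and 4.09 prior degrees of freedom, with Benjamini-Hochberg adjustment over all genes tested. Of these steps, the limma fit of siRNA 1 against control was tested on simulated data, with changes of 1 log2 unit. No member's group means spanned more than that, so the simulation does not speak for smaller changes. Members and lists were chosen with earlier results of these data known. Named members were those called in any contrast, the 5 brightest, the 3 on either side of the threshold and those of extreme spread. Of the 8 largest non-overlapping changes per direction and contrast, some were named and others were not. Cluster runs, motifs and shared upstream letters were chosen after values were seen. Domain classes from protein sequence were not analysed here. Precision is limited by the number of arrays. Alternatives are listed in the closing section. Figures used matplotlib 3.10.9.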

Additional observations from a re-analysis of the deposited data

Results flagged for a closer look

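A test of the difference between the siRNAs' effects, siRNA 1 minus siRNA 2 in limma, was passed by 10 ZNF genes. These are 4.67% of the members, against 9.15% of all genes tested. On the log2 scale the difference was 0.43 for ZNF101, 0.47 for ZNF106, 0.58 for ZNF12, 0.38 for ZNF512, 0.41 for ZNF618 and 0.53 for ZNF766, all higher with siRNA 1. It was -0.75 for ZNF138, -0.92 for ZNF367, -0.43 for ZNF562 and -0.52 for ZNF609.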

How the results depend on the processing

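The alternatives were no filter, a 75th percentile filter, averaged rows, quantile normalization, median centring, only the groups compared, the replicate block, a trend and robust prior, and each array left out. The counts of members called were 7, 10, 8 and 10 for siRNA 1, siRNA 2, the mean of both and siRNA 1 against siRNA 2. With no filter, which doubles the genes adjusted over, they were 0, 2, 0 and 1 (25, 32, 26 and 26 at an unadjusted p under 0.05). The 75th percentile filter, which leaves 53 members, gave 8, 8, 4 and 14 calls in that order, and medians of -0.0441, -0.0250 and -0.0406 for siRNA 1, the mean and siRNA 1 against siRNA 2. With only the groups compared siRNA 2 called 5, and the trend and robust prior called 16 between the siRNAs; the cause was not tested. With the replicate block the counts were 8, 17, 10 and 13. Deviations of same-numbered arrays correlated across genes at 0.251, 0.265 and 0.205 in the 3 pairs of groups, but the labels give the numbers no shared origin. Leaving out 1 array gave 0 to 7, 4 to 6, 0 to 5 and 3 to 9 calls, and medians of -0.0266 to 0.0325, -0.0374 to 0.0175, -0.0299 to 0.0133 and -0.0220 to 0.0305. The ratio of within-group SDs, 1.11, lay between 1.09 and 1.13 with quantile normalization, median centring or averaged rows. Among named genes, 712 values kept direction and side of the threshold, 185 lost the call, 30 gained one and 0 reversed. The 712 include values that were not called to begin with, which cannot lose a call. The counts therefore do not give the share of calls kept. For the mean of both siRNAs, fitting only the groups compared changes nothing and was not run.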
